A study of Mus musculus with 16 samples.

Results

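Epithelial cells keep their identity through a small set of regulators, and 7 of them were examined in lung tumors and their metastases: the ETS factors Ehf, Elf3 and Elf5, the Grainyhead factor Grhl2, the Krüppel-like factor Klf5, and the splicing regulators Esrp1 and Esrp2. The genes were chosen by name from families that keep the epithelial state, with earlier results of these data known. Those results included the comparison of metastases with matched primary tumors, in which Ehf and Esrp1 were among the genes with the largest decreases. Their values in that comparison are therefore a description, with no p-value given, and the counts of members past its threshold stand beside the background without being read as support. Every probe set (a group of short oligonucleotides that measures 1 transcript) that the platform annotation assigns to a single symbol among the 7 was taken, with Rbm35a and Rbm35b counted as older names of Esrp1 and Esrp2. This gave 15 probe sets of the 22626 that are not controls, for 7 of 12393 genes.

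The tumors came from p53R172HΔg/+ K-rasLA1/+ mice, which carry 1 mutant copy of the tumor suppressor p53 in the germline and a latent oncogenic K-ras allele that recombines at random in scattered cells, so each lung tumor arises by itself. All 16 tumors share this genotype, no treatment is named and no normal lung was analysed here. The labels give no ages, and mouse 6 was female and the others male. Each of mice 1 to 7 gave 1 primary lung adenocarcinoma, and mice 1 to 4 also gave 9 metastases. Mouse 1 had a liver metastasis and 2 in the body wall (labelled s.c. met/body wall and inguinal met), and mouse 2 had 1 in the liver. Mouse 3 had metastases of the heart, a mediastinal lymph node and the body wall (labelled s.c. met), and mouse 4 had them in a mediastinal lymph node and the parietal pleura. Tumor tissue was dissected away from its surroundings, and each tumor was hybridized to 1 array. Values are intensities in arbitrary units, and a value is called dim if it lies under 24.3, the 25th percentile over all probe sets and tumors. The intensity of a probe set also depends on its oligonucleotides, so levels are compared between tumors and never between genes.

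ETS factors bind DNA at a GGAA core. Ehf, Elf3 and Elf5 form the branch of the family that is restricted to epithelia, and in lung Elf5 is known from the distal epithelial tips of the embryo. Grhl2 activates genes of the apical junction, among them E-cadherin and claudins, and Klf5 is a zinc finger factor needed for maturation of lung epithelium. Esrp1 and Esrp2 are RNA-binding proteins that make the epithelial splice forms of transcripts such as Fgfr2 and Cd44. Repressors of the Zeb and Snai families, which act in epithelial-mesenchymal transition (EMT), bind the E-box CACCTG in promoters of epithelial genes. Promoter windows of Elf3 and Elf5, the only members for which one was at hand, are shown with this E-box marked. Whether it bears on the levels of these genes in the tumors was not tested. The 250 bases before the start site are given 5′ to 3′ from RefSeq (GRCm38.p6), with each CACCTG in capitals: Elf3 at chr1:135258473-135258722 on the minus strand and Elf5 at chr2:103411848-103412097 on the plus strand.
Elf3: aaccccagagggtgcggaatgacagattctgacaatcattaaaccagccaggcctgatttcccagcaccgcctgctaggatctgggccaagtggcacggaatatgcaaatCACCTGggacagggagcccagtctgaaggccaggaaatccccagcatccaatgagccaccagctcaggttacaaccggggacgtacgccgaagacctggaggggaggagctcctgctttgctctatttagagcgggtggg
Elf5: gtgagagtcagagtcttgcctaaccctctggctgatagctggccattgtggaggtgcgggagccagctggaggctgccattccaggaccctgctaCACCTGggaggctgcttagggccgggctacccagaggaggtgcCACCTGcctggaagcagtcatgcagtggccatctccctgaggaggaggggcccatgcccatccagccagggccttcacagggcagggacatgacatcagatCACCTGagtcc

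The Elf5 window held 3 matches to CACCTG, which begin 155, 112 and 11 bases before the start site, and the Elf3 window held 1, at 140 bases before it. A later start site of Elf5 had 1 match on the opposite strand, 21 bases after the site. Of 32851 mouse promoter windows of 300 bases, 20.2% held CACCTG on either strand. The ETS core GGAA was present in all 3 windows of Elf3 and Elf5 and in 96.0% of all windows. The longer ETS form GGAAGT (23.8% of all windows) and the Grainyhead motif AACNNGTT (4.20%) were in none of the 3. The KLF box CACCC (57.5% of all windows) had 2 matches in the Elf3 window, 0 in the earlier and 3 in the later Elf5 window. A match is a description of the letters and not a site of binding.

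All 7 genes were lower in the metastases than in the matched primary tumors at the brightest probe set of each gene, but by very different amounts. Esrp1, Ehf and Elf5 were between 4.60-fold and 12.7-fold lower, while Esrp2, Elf3, Klf5 and Grhl2 were between 1.30-fold and 1.65-fold lower. The larger sizes depend on dim values: with every value under 24.3 raised to it, the log2 differences were −0.97 for Ehf, −1.81 for Elf5 and −2.68 for Esrp1, which puts Ehf near Esrp2 (−0.72) and Elf3 (−0.67). All 7 stayed lower under quantile normalization, with each array centred on its median and with any 1 mouse or metastasis left out. The median log2 difference was −0.72 over the 7 genes and −0.01 over all 12393 genes. At the level of probe sets, 12 of 15 were lower, with a median of −0.67 against −0.016 over all probe sets. The threshold (an adjusted p of 0.05 from limma, Benjamini-Hochberg method over 22626 probe sets) was passed downward by 2 of 15, 1 of Ehf and 1 of Elf5, and by 77 of all probe sets, or 0.340%. Neither of the 2 was the brightest of its gene: at the brightest probe sets 0 of 7 genes passed downward, against 44 of all 12393. Since the members were chosen with this comparison known, nothing is read from these counts. All 9 metastases lay below the primary tumor of their own mouse at 7 of the 15 probe sets (3.60% of all probe sets), and below all 7 primary tumors at 2 (0.318%). In bulk tumor RNA, fewer cells of a type and less RNA per cell cannot be told apart.

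**Figure D1:**
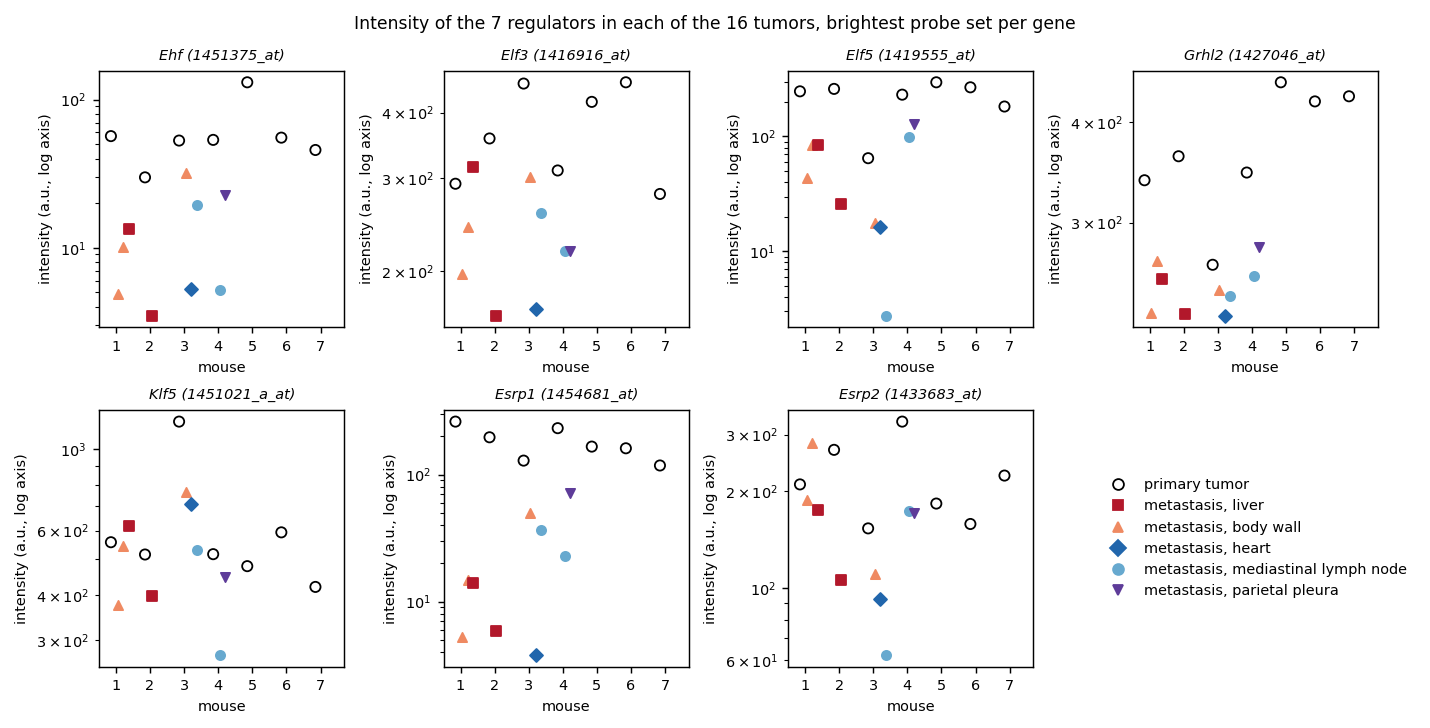
Intensity (arbitrary units, log axis) of the brightest probe set of each regulator in the 16 tumors, arranged by mouse, where an open circle is a primary tumor and each filled symbol a metastasis of the site in the key. Esrp1 metastases lie between 3.80 and 71.6, all below the lowest primary tumor at 118.0, while for every other gene the tissues overlap.

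Ehf lies on chr2:103263431-103303275 (GRCm38.p6) and was measured by 3 probe sets with Pearson r from 0.76 to 0.92 over the 16 tumors, a range that includes the tissue difference and was 0.38 to 0.77 with the tissue means subtracted. At the brightest, 1451375_at, the primary tumors of mice 1 to 4 had intensities of 56.7, 29.9, 52.9 and 53.5, and those of mice 5 to 7 had 130.9, 55.4 and 45.7. The body wall metastases of mouse 1 had 4.89 and 10.1, and the liver metastases of mice 1 and 2 had 13.3 and 3.48. In mouse 3 the body wall, heart and lymph node metastases had 31.8, 5.25 and 19.3. Those of lymph node and pleura in mouse 4 had 5.22 and 22.8. Each metastasis was below its own primary tumor, and 8 of 9 were below every primary tumor, the exception being the body wall metastasis of mouse 3, which lay just above the primary tumor of mouse 2. The log2 difference was −2.43 (SE 0.54), or 5.40-fold lower. At 1419475_a_at all 9 metastases (1.36 to 14.8, median 3.35) lay below all 7 primary tumors (26.2 to 64.2, median 43.4), with a log2 difference of −3.56 (SE 0.58). The faintest probe set, 1419474_a_at, gave −1.53 (SE 0.39), with 4 of 7 primary tumors and 9 of 9 metastases in the dim range. Because 8 of 9 metastases were dim at the brightest probe set as well, the size of the Ehf difference depends on the lowest values: with every value under 24.3 raised to it, the 3 log2 differences were −0.97, −0.89 and −0.16.

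Elf5 (chr2:103412098-103450989) is the neighbour of Ehf on chromosome 2. The gap between them is 108822 bases and holds 2 annotated genes, neither coding for a protein. At its brightest probe set, 1419555_at, the primary tumors of mice 1, 2, 3 and 4 had intensities of 247.5, 260, 64.7 and 231.5, and those of mice 5, 6 and 7 had 297, 268 and 182.5. The metastases of mouse 1 had 43.5 and 83.9 in the body wall and 83.8 in the liver, and the liver metastasis of mouse 2 had 25.8. The metastases of mouse 4 kept the highest levels, at 99.6 in the lymph node and 130 in the pleura. Mouse 3 was low throughout: its primary tumor was the lowest of the 7, and its body wall, heart and lymph node metastases, at 17.6, 16.1 and 2.75, were the lowest of the 9. All 9 metastases were nevertheless below their own primary tumor, at log2 ratios from −4.56 to −0.84, and below the 3 primary tumors of mice 5 to 7. The log2 difference was −2.20 (SE 0.52) here and −1.40 (SE 0.17) at 1419556_at, where the 9 ratios spanned only −2.21 to −0.89. The 2 probe sets had r = 0.93 over the 16 tumors, and 0.87 with the tissue means subtracted.

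Elf3 (chr1:135253574-135258472) was bright in every tumor and differed less. Its single probe set, 1416916_at, ranged from 280 to 456.5 over the 7 primary tumors (median 357) and from 165 to 316 over the 9 metastases (median 218.5). The lowest metastases were the liver metastasis of mouse 2 (165) and the heart metastasis of mouse 3 (169). The liver metastasis of mouse 1, at 316 against 293 in its primary tumor, was the exception among 9 metastases of which 8 were lower than their own primary tumor. The log2 difference was −0.67 (SE 0.20), and the tissues overlapped. The 3 epithelial ETS factors therefore spanned log2 differences from −2.43 to −0.67 at their brightest probe sets. Of 21 other ETS genes measured, none passed the threshold in either direction, with 10 lower, 11 higher and a median of 0.01. The largest among those above the dim range were Etv5 (−0.48), Ets2 (−0.41), Elf1 (−0.34) and Fli1 (−0.40).

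Grhl2 (chr15:37232821-37363569) had a small difference of little spread at its brightest probe set. Intensities at 1427046_at were 339, 363, 266 and 346 in the primary tumors of mice 1 to 4 and 449, 425 and 431 in those of mice 5 to 7. Across the 9 metastases they ranged only from 230 to 279 (median 247). Of these, 7 lay below every primary tumor, and the other 2 lay above the primary tumor of mouse 3 (266) alone. All 9 were below their own primary tumor, at log2 ratios from −0.65 to −0.10, with a log2 difference of −0.38 (SE 0.10). The other bright probe set, 1431877_a_at, did not show this: it ranged from 162 to 400 in primary tumors and from 121 to 419 in metastases, with a log2 difference of 0.07 (SE 0.23), and only 4 of 9 metastases were below their own primary tumor. The probe sets 1431878_at and 1452643_at were dim in 14 and 15 of 16 tumors and gave −0.28 (SE 0.49) and 0.88 (SE 0.75). Among the bright probe sets the direction for Grhl2 thus rests on 1427046_at alone, and the dim ones had opposite signs. Of the related genes, Grhl1 (−0.32), Tfcp2 (−0.17) and Tfcp2l1 (−0.38) were lower and Ubp1 (0.27) was higher, and 0 of 4 passed the threshold.

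Klf5 (chr14:99298691-99313412) was bright in all tumors, and its tissues overlapped. At 1451021_a_at the primary tumor of mouse 3 stood apart with an intensity of 1192, against 420.5 to 593 in the other 6. Metastases ranged from 274 in the lymph node of mouse 4 to 763 in the body wall of mouse 3 (median 531). The metastases of mouse 3 had 763 in the body wall, 709 in the heart and 531 in the lymph node, the first of which was the highest of the 9. The log2 difference was −0.49 (SE 0.20), with 8 of 9 metastases below their own primary tumor. The other probe set, 1451739_at, gave 0.02 (SE 0.14), with 5 of 9 below, and showed no shared pattern with the first over the 16 tumors (r = −0.00), so the direction for Klf5 rests on 1 of 2 probe sets. Of 13 other KLF genes, 0 passed the threshold, with 8 lower and 5 higher. Above the dim range Klf10 (−0.75) and Klf6 (−0.33) had the lowest values and Klf16 (0.39) and Klf4 (0.34) the highest.

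Esrp1 (chr4:11331933-11386783) had the largest decrease of the 7 genes. At its single probe set, 1454681_at, the primary tumors of mice 1, 2, 3 and 4 had intensities of 262, 197, 129 and 232, and those of mice 5, 6 and 7 had 166, 161 and 118.0. In mouse 1 the body wall metastases had 5.26 and 14.7 and the liver metastasis 13.9, and the liver metastasis of mouse 2 had 5.87. In mouse 3 the body wall metastasis kept 49.7 and the lymph node 36.6, while the heart had 3.80, the lowest of all. In mouse 4 the lymph node had 23.0 and the pleura 71.6, the highest of the 9. The tissues did not overlap, and the log2 difference was −3.67 (SE 0.73), or 12.7-fold lower. Of the 9 metastases, 6 were in the dim range, among them all 4 of mice 1 and 2, and with values under 24.3 raised to it the log2 difference was −2.68.

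Esrp2 (chr8:106130319-106137193), the paralog with the same known function, differed much less. At 1433683_at the 7 primary tumors ranged from 153.5 to 329 (median 210) and the 9 metastases from 62.2 to 283 (median 171). In mouse 1 the metastases had 188, 283 and 176 against 210 in the primary tumor, a mean log2 ratio of 0.00. The metastases of mouse 3 had 111, 92.8 and 62.2 against 153.5. Mouse 2 had 106 in the liver against 269, and mouse 4 had 174 and 171 against 329. The log2 difference was −0.72 (SE 0.23), with 8 of 9 metastases lower than their own primary tumor. At the fainter probe set, 1419977_s_at, it was −0.33 (SE 0.14). The 2 probe sets had r = 0.23 over the 16 tumors, and −0.22 with the tissue means subtracted. In mouse 1, where all 3 metastases were dim for Esrp1, the mean log2 ratio was −4.67 for Esrp1. For Esrp2 it was 0.00 at 1433683_at but −0.58 at 1419977_s_at, so its 2 probe sets disagreed there. Whether the paralogs differ was not tested.

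**Figure D2:**
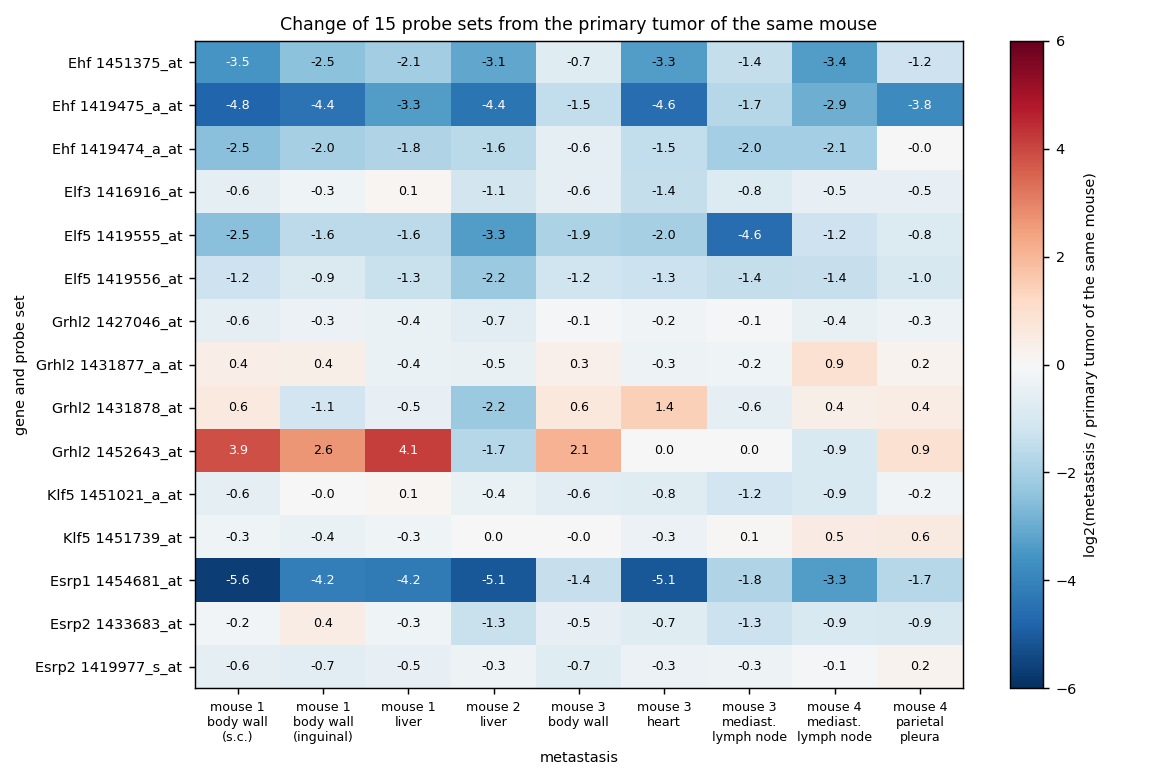
Log2 ratio of each of the 9 metastases (columns) over the primary tumor of the same mouse for each of the 15 probe sets (rows), blue for lower and red for higher. Esrp1, Ehf and Elf5 are lower in every column, from −0.01 at the faintest Ehf probe set in the pleura to −5.64 for Esrp1 in a body wall metastasis of mouse 1. The first row of Grhl2 is also lower throughout, while its other rows and those of Elf3, Klf5 and Esrp2 hold both signs.

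The 3 primary tumors of mice 5 to 7 are not part of the matched comparison. All 9 metastases lay below all 3 of them at 8 of the 15 probe sets (2.65% of all probe sets): 2 of Ehf, both of Elf5, the brightest of Grhl2, 1 of Klf5, that of Esrp1 and 1 of Esrp2. The metastases themselves took part in the comparison that was known when the genes were chosen, so this count too is a description.

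Whether the levels depend on where a metastasis grew was tested within the 9 metastases, a comparison that the choice of genes did not use. The 4 thoracic metastases (lymph node, pleura, heart) were set against the 5 distant ones (liver, body wall), with the mouse as a random block. No member passed an adjusted p of 0.05 in limma, and neither did any of the other probe sets (0.00%), while 1225 of all (5.41%) and 1 of the 15 members had an unadjusted p under 0.05. That 1 was the dim Grhl2 probe set 1452643_at, lower in thoracic metastases by a log2 difference of −2.41 (SE 0.72, limma adjusted p = 0.854). For the genes with the largest differences between tissues the intervals were wide: the thoracic minus distant log2 difference was −0.01 (95% interval −1.80 to 1.79) for Ehf, 0.52 (−1.77 to 2.81) for Esrp1 and −0.59 (−3.03 to 1.86) for Elf5. For Grhl2 at 1427046_at it was 0.03 (−0.24 to 0.30) and for Elf3 −0.17 (−0.72 to 0.38). Within mouse 3, whose metastases include both classes, the heart had the lowest Ehf (5.25) and Esrp1 (3.80) and the body wall the highest (31.8 and 49.7). Mice 1 and 2 have only distant metastases and mouse 4 only thoracic ones.

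The 3 body wall metastases were also compared with the 6 others. Again 0 members and 0 of all probe sets (0.00%) passed the adjusted threshold in limma, with unadjusted p under 0.05 for 0 members and for 887 of all probe sets (3.92%). The body wall minus other log2 difference was 0.42 (95% interval −1.34 to 2.18) for Ehf, 0.29 (−2.0 to 2.58) for Esrp1, 0.32 (−1.95 to 2.59) for Elf5 and 0.52 (−0.24 to 1.29) for Esrp2. Differences of several fold between sites would have fitted within these intervals for Ehf, Esrp1 and Elf5. For Grhl2 (1427046_at) the difference of 0.01 had an interval from −0.25 to 0.27.

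The primary tumors of mice 5 to 7, from which no metastases were profiled, were compared with those of mice 1 to 4. No member passed the adjusted threshold, against 231 of all probe sets (1.02%), and 3 of 15 had an unadjusted p under 0.05, against 20.6% of all. Those 3 were the 2 bright Grhl2 probe sets and the fainter Klf5 probe set. Grhl2 at 1427046_at averaged 435 ± 12.4 (SD, n = 3) in mice 5 to 7 and 328.5 ± 43.1 (SD, n = 4) in mice 1 to 4, a log2 difference of 0.42 (SE 0.15, limma adjusted p = 0.188). At 1431877_a_at the means were 354 ± 41.6 and 220 ± 46.8 (SD), a log2 difference of 0.71 (SE 0.20, limma adjusted p = 0.124). Klf5 at 1451739_at averaged 300 ± 37.8 and 182 ± 26.4 (SD), a log2 difference of 0.72 (SE 0.17, limma adjusted p = 0.0865). In each of these 3 probe sets all 3 tumors of mice 5 to 7 lay above all 4 of mice 1 to 4, which held for 7.12% of all probe sets. Klf5 at 1451021_a_at went the other way (−0.40, 95% interval −1.19 to 0.39). Esrp1 (−0.43, −1.09 to 0.22), Esrp2 (−0.31, −0.98 to 0.36) and Ehf (0.56, −0.42 to 1.55) also did not pass.

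**Figure D3:**
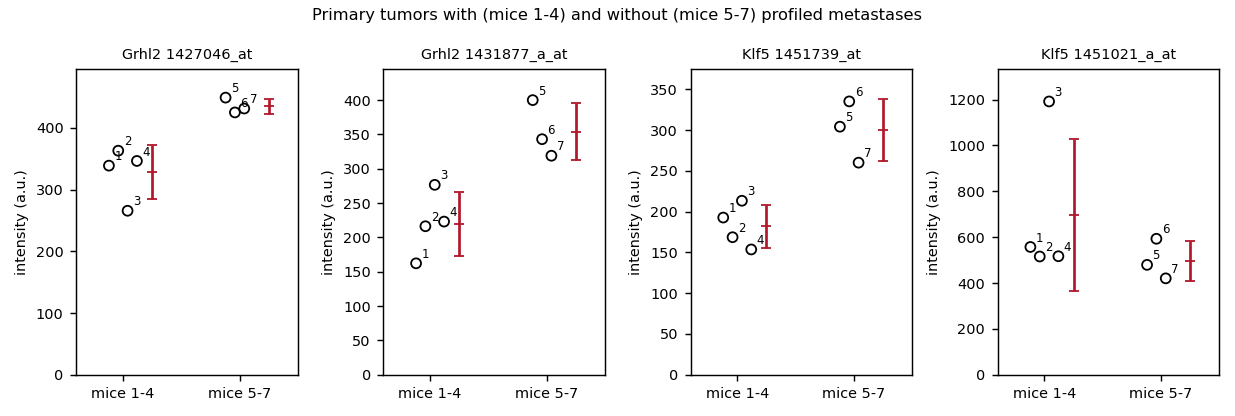
Intensity (arbitrary units) of 4 probe sets of Grhl2 and Klf5 in the primary tumors of mice 1 to 4 and mice 5 to 7, 1 point per tumor numbered by mouse, with mean and SD in red. The first 3 panels do not overlap between the groups, while in the last the primary tumor of mouse 3 stands at 1192.

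Genes of epithelial junctions and surface, among them known targets of Grhl2, were lower in metastases at nearly every member measured. Of 36, 36 were lower (35 under quantile normalization or median centring) and 6 passed the threshold, but 0 did with 1 mean ratio per mouse, the level of the animal, and 3 without the mouse as a block. The group had a median log2 difference of −0.84 against −0.01 over all genes, of which 44 of 12393 passed downward. Those that fell were Cldn3 (−1.14, a tight junction claudin), Rab25 (−1.42, a GTPase of apical recycling), the membrane serine proteases St14 (−1.69) and Prss8 (−1.92), their inhibitor Spint2 (−0.85) and Lamb3 (−2.11, a laminin 332 chain). Muc1 (−2.76), Epcam (−2.38), Cldn7 (−1.66) and Krt7 (−1.43) had low values but did not pass. Cdh1, which encodes E-cadherin, was at −0.72, Krt8 at −0.39 and Krt18 at −0.17, none of them past the threshold. The count of 6 was 0 without mouse 1, mouse 2, mouse 4, the lymph node metastasis of mouse 4 or the s.c. body wall metastasis of mouse 1, and 1 without mouse 3. These lists too were drawn up with earlier results of these data known, and part of their genes, Lamb3 among them, were already known to be lower.

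The transcripts known to be spliced by Esrp proteins had little difference in total level. Of 9 measured, 0 passed the threshold, 8 were lower and 1 was higher, with a median of −0.21. Fgfr2 was at −0.30, Numb at −0.24, Ctnnd1 at −0.23 and Enah, the highest, at 0.36. Splice forms of these transcripts were not analysed here. Of 14 other splicing regulators, 0 passed, 5 were lower and 9 higher, with a median of 0.14, from Celf2 (−0.43) to Celf1 (0.31).

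Among 17 genes listed as EMT factors or mesenchymal genes 0 passed the threshold, with 12 higher and 5 lower and a median of 0.27. The list mixes both sides of EMT, since it also holds Ovol1 (0.02) and Ovol2 (−0.19). Vim, which encodes the mesenchymal filament protein vimentin, was at 0.98, Sparc at 0.53, Zeb2 at 0.47 and Cdh11 at −0.74, and Zeb1 was at 0.29. Lung and endoderm lineage factors held values of both signs, with 13 of 18 lower and 0 past the threshold. Among them Hopx was at −0.99, Nkx2-1 at −0.69, Cebpa at −0.66 and Sox9 at 0.93.

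**Figure D4:**
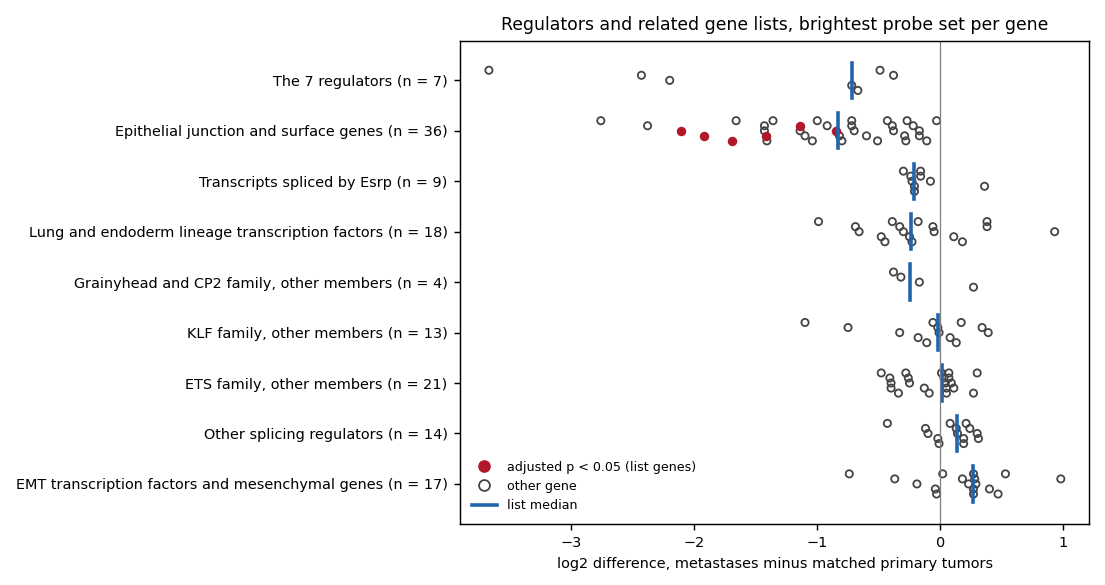
Log2 difference of metastases minus matched primary tumors for the brightest probe set of each gene in 9 lists, with blue bars for list medians and filled red points for list genes past an adjusted p of 0.05 in limma. All 36 epithelial junction and surface genes lie below 0 (35 under quantile normalization or median centring), with a median of −0.84, while medians of the other ETS, KLF and splicing genes lie between −0.02 and 0.14.

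Markers of several cell types moved with the tissue as well. The summed intensity of 9 alveolar type 2 markers was 18790 to 56630 in primary tumors and 1602 to 35060 in metastases, with 9 of 9 lower (median −2.27). Markers of club cells (7 of 7 lower, 2 passing) summed to 2029 to 8344 and 400 to 1233, and those of endothelium (10 of 10 lower) to 1069 to 1664 and 698 to 1445. Fibroblast markers (8 of 10 higher, median 0.93) summed to 1508 to 6147 in primary tumors and 2489 to 19130 in metastases, and macrophage markers (7 of 10 lower) to 6963 to 13330 and 2204 to 9852. None of the defining markers of these 5 cell types was dim in all 16 tumors. Their part in the differences of the 7 regulators was not tested.

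Markers of the host organs matched the labelled sites only in part. Hepatocyte markers (10 of 11 higher, median 0.38) summed to 590 to 1892 in primary tumors. They summed to 11110 and 6429 in the liver metastases of mice 1 and 2, but also to 6306 and 8340 in the body wall metastases of mouse 1, and to 518.5 to 2201 in the other 5. The heart metastasis had the highest sum of striated muscle markers (3774, against 728.5 to 1584 in primary tumors), a list of 15 of which Myh6 and Tnni2 were dim in all tumors. The inguinal metastasis of mouse 1 (2408) and the liver metastasis of mouse 2 (1847) also lay above the primary tumors, and the other metastases lay within their range. The lymph node metastases had the highest lymphocyte sums (575 and 573), with Cd3d and Cd4 dim in all tumors. The other metastases had 414 to 468 and the primary tumors 411 to 528, so the lymph nodes stood only slightly above the highest primary tumor. The part of host tissue in the regulators' values was not tested.

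Over all 16 tumors the 7 regulators did not vary as a single block. After the mean of each tissue was subtracted, Ehf and Esrp1 varied together over the 16 tumors (r = 0.74) and so did Elf5 and Esrp2 (r = 0.80). Ehf with Elf5 (r = −0.10) and Esrp1 with Esrp2 (r = 0.03) showed no shared pattern. The values for Esrp2 are those of its brightest probe set alone, since its 2 probe sets had r = −0.22 by the same measure. Within the 9 metastases Ehf and Esrp1 had r = 0.85, and within the 7 primary tumors r = −0.04. Of these 9 metastases 8 were dim for Ehf and 6 for Esrp1, so the first value comes mostly from dim intensities. For Elf5 and Esrp2 these were 0.89 and 0.39. Mouse 3 weighs heavily on the picture: without its tumors the 6 other metastases had r = 0.79 for Ehf and Esrp1, 0.57 for Elf5 and Esrp2, 0.80 for Ehf and Elf5, and 0.88 for Elf5 and Esrp1. In these 6 every pair of members had a positive r, from 0.04 for Klf5 and Esrp1 to 0.92 for Elf5 and Grhl2. Each of the 6 was dim for Ehf and most were dim for Esrp1. These 21 pairs are descriptions over few tumors, several of which come from the same animal, and carry no test.

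**Figure D5:**
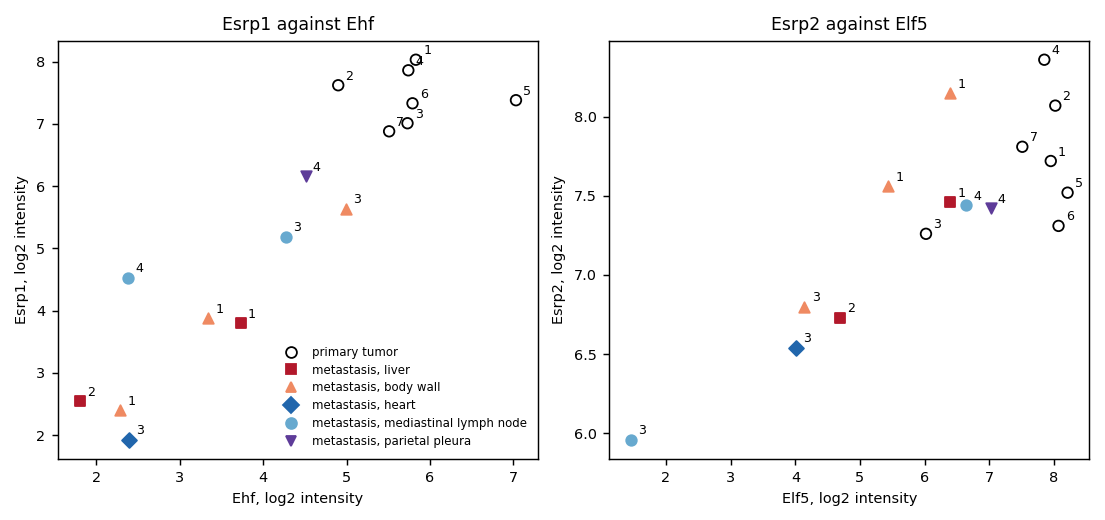
Log2 intensity of Esrp1 against Ehf and of Esrp2 against Elf5 in the 16 tumors, at the brightest probe set of each gene. Numbers give the mouse, and symbols the primary tumors and sites. The 3 metastases of mouse 3 lie at the lower left for Elf5 and Esrp2, with the lymph node lowest at an Elf5 intensity of 2.75, but are spread along the range for Ehf and Esrp1.

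The genes whose pattern over the 16 tumors was most like each member, by Pearson r after the tissue means were subtracted, were Ece1 (0.87) and Rbm39 (0.80) for Ehf, Card10 (0.89) for Elf3, and Csgalnact2 (0.93) for Elf5. For Grhl2 they were Cyp2f2 (0.92), a club cell cytochrome P450, and Zfhx3 (0.88), and for Klf5 Prrx2 (0.91). Those for Esrp1 were Trrap and Lamb3 (0.83 each), and Slc39a9 (0.96) was nearest to Esrp2. The search ran over all genes above the dim range and only 16 tumors, and nothing is read from these values.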

How the data were processed

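Total RNA of 16 dissected tumors was hybridized to Affymetrix Mouse 430A 2.0 arrays, 1 array per tumor. The authors quantified the scans in Microarray Suite and modelled them in dChip (invariant set normalization, mismatch signal subtracted from perfect match signal), and deposited intensities on a linear scale. No array had a median intensity above 85.6. Gene symbols come from the platform annotation (20380 probe sets with 1 symbol, 691 with several, 1555 with none). Members and gene lists were chosen with earlier results of these data known.

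Here 64 controls were left out, intensities below 1 were set to 1 before the log2 transform, so a dim probe set's difference depends on this floor. Fits used limma 3.58.1 (R 4.3.3) over 22626 probe sets with Benjamini-Hochberg adjustment; code was tested on simulated data. Each gene was led by its probe set of highest mean. Metastases were compared with the 4 matched primary tumors with the mouse as a fixed block (8 residual degrees of freedom), which counts metastases of 1 mouse as separate replicates, so SEs are not at the level of the animal. Metastases were compared among themselves with the mouse as a random block (consensus correlations 0.154 and 0.281), and primary tumors without a block. The mouse pairs the samples because tumors come from the same animal, and deviations from the tissue means correlated at −0.00 to 0.40 between a metastasis and its own primary tumor, highest with its own for 6 of 9. Precision is limited by the number of arrays.

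Named were all member probe sets and up to 3 genes most like a member. From each list the genes past the threshold and up to 4 others of largest difference above the 25th percentile of values were named. A few further list genes, Cdh1, Krt8, Krt18, Zeb1, Ovol1 and Ovol2, were chosen after their values were seen. Alternatives were a floor or filter at the 25th percentile, quantile normalization, median centring, a variance trend with robust prior, other blocks, 1 mean ratio per mouse, all 16 tumors, the methods' t-test and tumors left out.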

Additional observations from a re-analysis of the deposited data

Results flagged for a closer look

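Single tumors stood apart from the rest of their group, by the gap to the nearest tumor over the whole range, in 7 of 90 groups of 4 to 9 tumors tested. Chance alone gives about 1 in 20 for a single group. The groups share tumors and genes, so the same tumor can count more than once and nothing is read from the count. The primary tumor of mouse 3 stood apart at Elf5 1419555_at (intensity 64.7) and at Klf5 1451021_a_at (1192), each both among all 7 primary tumors and among those of mice 1 to 4. At Ehf 1451375_at the primary tumor of mouse 2 (29.9) was low among the primary tumors of mice 1 to 4. At Klf5 1451739_at the heart metastasis of mouse 3 (167) was low among the 4 thoracic metastases. At Esrp2 1419977_s_at the primary tumor of mouse 4 (32.4) was low among the 7 primary tumors.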

How the results depend on the processing

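In the comparison with matched primary tumors 2 of 15 member probe sets passed the adjusted threshold, a count that described a contrast already known. It was 4 with values under the 25th percentile raised to it, 4 with dim probe sets left out, 4 with a variance trend and robust prior, 7 by the methods' paired t-test over the 9 ratios, 8 with all 16 tumors, 0 with 1 mean ratio per mouse, and between 0 and 2 when a single mouse or metastasis was dropped (0 without mouse 1, mouse 4, the lymph node metastasis of mouse 4 or the s.c. body wall metastasis of mouse 1). Over all probe sets the count of 80 became, in the same order, 83, 239, 224, 885, 280, 0 and between 2 and 72. The methods' t-test at their own threshold (p under 0.01) called 2208. Without the replicate block for the mouse, 1 member and 43 of all probe sets passed.

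Among the metastases 0 members passed in every setting run for thoracic against distant and for body wall against other sites, with or without the replicate block. Tumors left out there were fitted with the correlation of the full set. For the primary tumors 0 members passed except 1 with a variance trend and robust prior, Klf5 1451739_at (0.72, limma adjusted p = 0.0460), and over all probe sets the 231 became 1045, or 0 to 42 with 1 tumor left out.

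Signs of differences that passed no threshold turned as follows, the cause not tested. For thoracic against distant sites, a fixed replicate block gave −0.07 for Grhl2 1427046_at, −0.56 for Grhl2 1431877_a_at, −0.12 for Klf5 1451739_at and −2.08 for Esrp1; no replicate block gave 0.16 for Ehf; the raised floor gave 0.28 for Elf5; median centring gave 0.01 for Ehf; ratios to the matched primary tumor gave −0.01 for Grhl2 1431877_a_at. For body wall against other sites, the raised floor gave −0.20 for Elf5 and −0.03 for Grhl2 1452643_at; quantile normalization gave −0.09 for Grhl2 1427046_at and −0.02 for Klf5 1451021_a_at; median centring gave −0.06 for Grhl2 1427046_at; no replicate block gave −0.06 for Esrp1; a fixed replicate block gave −0.07 and 0.02 for the Klf5 probe sets 1451021_a_at and 1451739_at.

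With 1 tumor left out, thoracic minus distant ranged from −0.41 to 0.67 for Ehf, −1.14 to 0.49 for Elf5, −0.01 to 0.07 for Grhl2 1427046_at, −0.38 to 0.02 for Klf5 1451021_a_at and −0.01 to 1.47 for Esrp1. Body wall minus other ranged from −0.50 to 0.94 for Ehf, −0.15 to 0.33 for Elf3, −0.36 to 0.73 for Elf5, −0.04 to 0.06 for Grhl2 1427046_at, −0.18 to 0.31 for Klf5 1451021_a_at and −0.77 to 0.95 for Esrp1. Mice 5 to 7 minus mice 1 to 4 ranged from −0.02 to 0.33 for Elf3, −0.01 to 0.68 for Elf5 and −0.68 to 0.57 for Grhl2 1452643_at.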
